A study of Homo sapiens with 18 samples.

Results

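The clustered protocadherins are a family of cell-surface adhesion proteins encoded side by side on the long arm of chromosome 5, in the PCDHA, PCDHB and PCDHG clusters. Members were taken as every row of the deposited count tables whose Ensembl identifier maps to a protein-coding gene of chromosome 5 with a symbol starting PCDHA, PCDHB or PCDHG. This gave 53 genes, of 60603 rows in the H1650 table and 60649 rows in the PC9 table: 15 in PCDHA, 16 in PCDHB and 22 in PCDHG.

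The libraries are poly-A RNA-seq of brain metastatic derivatives of H1650 and PC9, established human lung cancer lines that carry an EGFR mutation. Each line had 3 groups of 3 libraries: cells labelled Tr-BrM with the treatment S100A9-inh, cells labelled Tr-BrM with the treatment control, and cells labelled BrM with the treatment control. BrM marks the brain metastatic derivative, while no source used here gives the meaning of Tr or the means by which S100A9, a secreted calcium-binding protein, was inhibited. All 18 libraries therefore come from brain metastatic cells, and no parental cells entered any comparison. No label says that replicate libraries were separate cultures, and the spread behind each p-value may therefore be only technical. The libraries held 17403497 to 27112362 counts in H1650 and 18174516 to 21748732 counts in PC9. S100A9 itself, as a check of the labels, was at 95.2, 88.2 and 105 CPM (a gene's counts scaled to a common library size) in H1650 S100A9-inh libraries, 336, 293 and 292 CPM in H1650 Tr-BrM control libraries and 217, 206 and 199 CPM in H1650 BrM control libraries. In PC9 it was at 33.9, 30.4 and 35.5 CPM in S100A9-inh libraries, 739, 738 and 759 CPM in Tr-BrM control libraries and 119, 127 and 120 CPM in BrM control libraries, so the S100A9-inh libraries were lowest in both lines. Epithelial and lung markers summed to 9710 to 11685 CPM in the H1650 libraries and to 21829 to 28014 CPM in the PC9 libraries, while NKX2-1, NAPSA, SFTPB and SFTPC, which define the lung lineage, did not pass the filter on low counts in either line.

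Clustered protocadherins are best known from the nervous system. Each neuron expresses a small set of members, the proteins bind their own kind on a neighbouring cell, and the combination lets a neuron's branches recognise and avoid each other. Most members have their own promoter in front of a large variable exon that encodes the extracellular part. CTCF and cohesin loop a distant enhancer to the chosen promoters, and methylation of the promoter DNA keeps other members silent. The C-type members at the 3′ ends of the clusters (PCDHAC1, PCDHAC2, PCDHGC3, PCDHGC4 and PCDHGC5) are used less at random, and in mouse tissue some are expressed broadly.

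The arrangement of the genes decides which reads can be told apart. On GRCh38 with the GENCODE 29 annotation all 53 genes lie on the + strand, PCDHA at chr5:140786136-141012347, PCDHB at chr5:141051135-141249365 and PCDHG at chr5:141330571-141512981. PCDHB genes have no common exons. In PCDHA and in PCDHG, the variable exon is spliced to 3 constant exons shared by the whole cluster, of 59, 89 and 2718 bases in PCDHA and of 59, 89 and 2033 bases in PCDHG. The first shared exon belongs to 15 of 15 PCDHA genes (chr5:140978949-140979007) and to 22 of 22 PCDHG genes (chr5:141494807-141494865). The share of a member's exon bases that no other annotated gene holds was 36.9 to 78.7% in PCDHA (median 50.6%), 75.1 to 100% in PCDHB (median 94.85%) and 35.6 to 72.4% in PCDHG (median 56.15%). A read inside a shared exon cannot be assigned to a member, and no source used here says whether the counting dropped, split or repeated such reads. PCDHA1 had 0 counts in all 18 libraries although its annotation holds the shared PCDHA exons, in both lines where other PCDHA genes were counted. In PC9, PCDHA2, PCDHA4, PCDHA5, PCDHA9, PCDHGA8 and PCDHGB5, which hold the shared exons of their clusters, also had 0 counts, while PCDHGC3 had 3048. By this annotation, shared-exon reads were thus not repeated in, or evenly split over, every gene that holds the exon. PCDHGB4 and PCDHGA8 each share 4447 exon bases with other members, against 2181 in each other PCDHG gene, as their largest exons also overlap at chr5:141390157-141392422. Another 16 annotated genes overlap members, and these held 28 counts in all in the 9 H1650 libraries and 0 counts in PC9. The strand used in counting is not stated.

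The sequences across the junction show what members share and what is their own. Below, the last 20 bases of the variable exon are in lower case and the 59-base shared exon in capitals, as read from the GRCh38 reference.
PCDHA12: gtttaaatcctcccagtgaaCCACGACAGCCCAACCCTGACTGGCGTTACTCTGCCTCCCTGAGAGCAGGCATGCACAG
PCDHAC1: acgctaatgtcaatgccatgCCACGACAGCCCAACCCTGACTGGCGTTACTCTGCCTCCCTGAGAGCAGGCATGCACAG
PCDHGA4: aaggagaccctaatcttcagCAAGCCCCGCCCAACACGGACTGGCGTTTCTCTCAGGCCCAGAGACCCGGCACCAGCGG
PCDHGC3: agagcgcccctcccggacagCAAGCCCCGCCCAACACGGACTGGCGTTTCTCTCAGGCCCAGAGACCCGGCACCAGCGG
Within a cluster the capitals are the same letters, and between PCDHA and PCDHG 39 of the 59 bases are identical. Similar variable exons add to the sharing: of the windows of 50 bases in the exon bases that no other annotated gene holds, 45.02% of those of PCDHB8 and 23.28% of those of PCDHB13 recur in another member, each mostly in the other of the pair. The share was 33.46% in PCDHB10, 21.29% in PCDHGB4, 19.88% in PCDHGB5, 7.05% in PCDHB5, 4.74% in PCDHA12, 1.51% in PCDHGA4 and 0% in PCDHGC3, shared exons left out.

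The promoters of the members on which the results turn are shown next, because each member is transcribed from its own. Each is the 100 bases before the RefSeq start (GRCh38.p14, + strand, 5′ to 3′), with every CGCT, the core of the conserved sequence element of these promoters, in capitals.
PCDHA12, chr5:140875208-140875307: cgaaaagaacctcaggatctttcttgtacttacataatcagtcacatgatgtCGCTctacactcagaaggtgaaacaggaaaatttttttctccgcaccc
PCDHAC1, chr5:140926199-140926298: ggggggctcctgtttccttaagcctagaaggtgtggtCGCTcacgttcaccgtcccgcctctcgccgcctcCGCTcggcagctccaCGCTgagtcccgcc
PCDHAC2, chr5:140966376-140966475: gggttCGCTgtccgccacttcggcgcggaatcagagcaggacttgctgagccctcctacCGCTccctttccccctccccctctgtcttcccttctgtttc
PCDHB5, chr5:141135106-141135205: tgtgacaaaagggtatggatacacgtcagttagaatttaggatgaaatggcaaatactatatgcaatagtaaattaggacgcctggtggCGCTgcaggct
PCDHB8, chr5:141177690-141177789: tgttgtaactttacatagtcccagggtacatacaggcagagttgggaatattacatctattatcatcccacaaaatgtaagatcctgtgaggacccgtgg
PCDHB13, chr5:141213819-141213918: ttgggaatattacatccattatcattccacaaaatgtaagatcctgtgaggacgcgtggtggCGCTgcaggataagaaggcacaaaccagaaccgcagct
PCDHGA4, chr5:141354921-141355020: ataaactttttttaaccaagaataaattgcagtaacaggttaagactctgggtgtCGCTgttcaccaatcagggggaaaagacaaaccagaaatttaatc
PCDHGB4, chr5:141387598-141387697: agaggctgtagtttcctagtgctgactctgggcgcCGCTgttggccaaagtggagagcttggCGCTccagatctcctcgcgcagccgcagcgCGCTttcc
PCDHGA10, chr5:141412887-141412986: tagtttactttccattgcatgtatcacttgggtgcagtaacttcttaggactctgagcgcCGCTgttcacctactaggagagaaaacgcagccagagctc
PCDHGC3, chr5:141475866-141475965: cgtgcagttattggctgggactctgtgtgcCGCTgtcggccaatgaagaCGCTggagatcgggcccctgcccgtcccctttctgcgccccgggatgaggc
A RefSeq promoter was matched for 47 of the 53 members. CGCT was present on the gene strand of this window in 44 of the 47, or 93.6%, against 9799 of 34943 promoters in the table, and on either strand in 93.6% against 44.7%. By cluster it was present in 12 of 13 PCDHA, 13 of 14 PCDHB and 19 of 20 PCDHG promoters. These letters were not in the windows of PCDHA9, PCDHB8 and PCDHGB2, but a window depends on the annotated start. The RefSeq starts of PCDHA9 and PCDHGB2 lie 919 and 94 bases past their GENCODE starts. The PCDHB8 window ends in letters close to those just before CGCT in PCDHB13. Bases outside the windows were not searched, so these members are not shown to lack the element. A match describes the letters and is not a site of binding.

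In H1650, the clustered protocadherins were lower in Tr-BrM control cells than in BrM control cells across all 3 clusters. The summed PCDHB level was 27.5 ± 1.25 CPM in Tr-BrM control libraries and 57.1 ± 1.70 CPM in BrM control libraries (SD, n = 3 each). The summed PCDHG level was 51.8 ± 4.61 CPM in Tr-BrM control libraries and 102 ± 3.80 CPM in BrM control libraries, and the summed PCDHA level was 18.7 ± 1.282 CPM in Tr-BrM control libraries and 29.2 ± 2.40 CPM in BrM control libraries. The ratios of Tr-BrM control to BrM control were 0.482 for PCDHB, 0.507 for PCDHG and 0.640 for PCDHA, and the sums of the 3 libraries did not overlap between these groups in any cluster. The sums are descriptions with no test, since the members were chosen with earlier results of these data known.

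**Figure D1:**
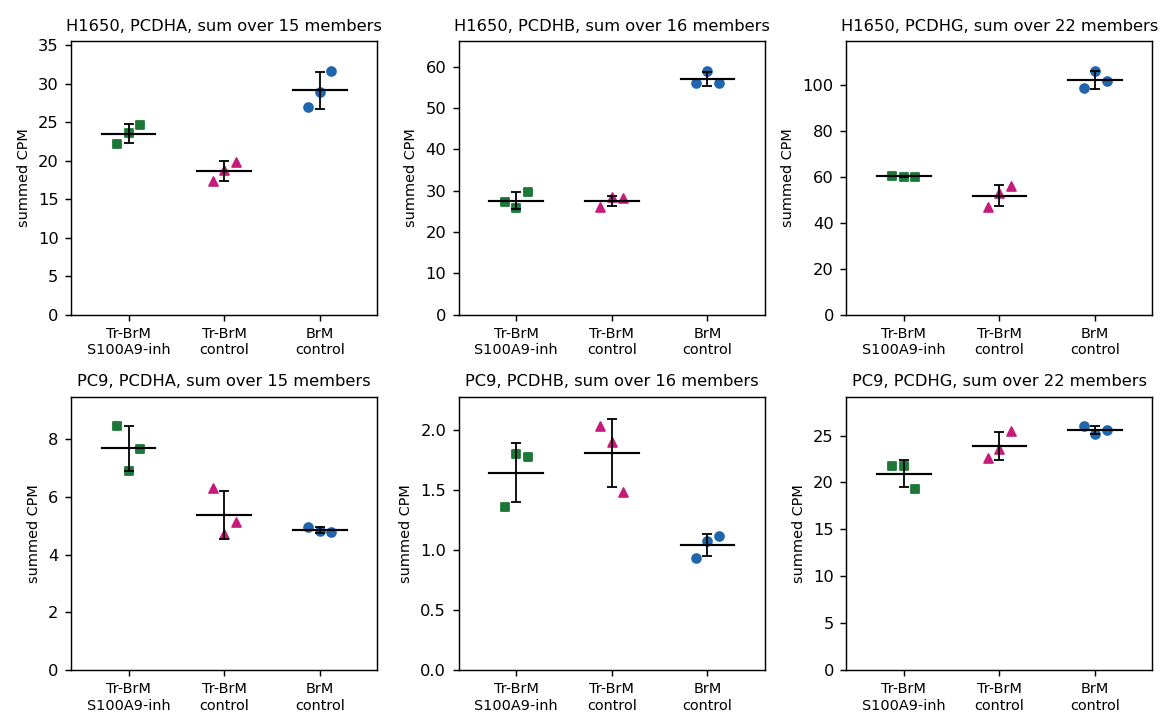
Summed CPM of the members of each cluster in each library, by line and group, with a line at the mean and a bar for the SD (n = 3). In H1650 the BrM control libraries lie highest in every cluster, at a mean of 57.1 CPM for PCDHB and 102 CPM for PCDHG, while in PC9 PCDHB is at 2.03 CPM or lower in every library.

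Of the 53 members, 32 passed the filter on low counts in H1650 and were tested: 7 in PCDHA, 10 in PCDHB and 15 in PCDHG. In Tr-BrM control cells 23 of them fell and 1 rose against BrM control cells (edgeR quasi-likelihood test, adjusted p below 0.05 over all 17937 genes tested), and 8 did not pass. Over all genes, 31.7% were called lower and 32.2% called higher in this comparison. The members that fell were 4 of 7 in PCDHA, 8 of 10 in PCDHB and 11 of 15 in PCDHG, and 17 of the 23 had a log2 fold change of -1 or below. The median log2 fold change of the tested members was -0.56 in PCDHA, -1.50 in PCDHB and -1.07 in PCDHG, against -0.001 over all genes. PCDHA5, PCDHB4, PCDHB8, PCDHB11, PCDHGA4, PCDHGA5 and PCDHGA6 would not have passed the filter without their BrM control libraries. Members that pass in this way can be called lower but hardly higher, so these counts and medians depend in part on the filter.

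The largest fall among members at or above 1 CPM was that of PCDHGA4 (ENSG00000262576, chr5:141355025-141512979), an A-type PCDHG gene. PCDHGA4 was at 0.477, 0.337 and 0.153 CPM in S100A9-inh libraries, 0.468, 0.110 and 0.243 CPM in Tr-BrM control libraries and 8.58, 8.55 and 9.94 CPM in BrM control libraries. It was low in every Tr-BrM library and high in every BrM control library, with no overlap. The fold change of Tr-BrM control against BrM control was -5.11 on the log2 scale (SE 0.26, adjusted p = 2.41e-16), or 34.6-fold lower. Per kilobase of exon bases held by no other gene, PCDHGA4 was at 0.119, 0.101 and 3.33 CPM in the S100A9-inh, Tr-BrM control and BrM control groups.

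Other PCDHG members fell less. PCDHGB2 was at 0.587, 0.422 and 0.383 CPM in S100A9-inh libraries, 0.416, 0.549 and 0.486 CPM in Tr-BrM control libraries and 3.25, 3.68 and 3.79 CPM in BrM control libraries, a log2 fold change of -2.85 (SE 0.25, adjusted p = 4.50e-11) between the control groups. Again no Tr-BrM library reached the BrM control range. The B-type genes PCDHGB4 and PCDHGB5, which share windows of sequence with each other, fell too. PCDHGB4 was at 5.20, 6.84 and 8.79 CPM in Tr-BrM control libraries and 16.7, 15.4 and 16.1 CPM in BrM control libraries, a log2 fold change of -1.21 (SE 0.12, adjusted p = 5.40e-10). PCDHGB5 was at 6.55, 6.58 and 6.12 CPM in Tr-BrM control libraries and 13.4, 14.2 and 12.7 CPM in BrM control libraries, with a log2 fold change of -1.06 (SE 0.10, adjusted p = 7.44e-11). The other PCDHG genes that fell were PCDHGA6 (-2.22), PCDHGA5 (-1.99), PCDHGA1 (-1.84), PCDHGA8 (-1.57), PCDHGA7 (-0.97) and PCDHGA2 (-0.91), beside PCDHGC3. PCDHGA3, PCDHGA9, PCDHGB6 and PCDHGC5 did not pass, with log2 fold changes of -0.91, -0.81, -0.78 and -0.68.

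The C-type genes differed among themselves. PCDHGC3 (ENSG00000240184, chr5:141475947-141512979), which in mouse and cell studies restrains Wnt signalling through AXIN1, had the highest level per unique kilobase of all members in H1650. It was at 21.2, 23.5 and 22.01 CPM in S100A9-inh libraries, 18.6, 22.1 and 23.0 CPM in Tr-BrM control libraries and 25.7, 27.6 and 28.6 CPM in BrM control libraries. Its fall was small, with a log2 fold change of -0.35 (SE 0.07, adjusted p = 1.05e-04), so that it made up 41.0% of the PCDHG sum in Tr-BrM control cells against 26.7% in BrM control cells. Without PCDHGC3 the PCDHG sum was 30.5 ± 2.36 CPM in Tr-BrM control libraries and 74.9 ± 3.24 CPM in BrM control libraries, a ratio of 0.408. PCDHAC2 fell further: it was at 0.312, 1.10 and 0.583 CPM in Tr-BrM control libraries and 3.48, 3.55 and 3.73 CPM in BrM control libraries, with a log2 fold change of -2.33 (SE 0.26, adjusted p = 8.48e-09). PCDHAC1 was at 3.22, 3.22 and 2.62 CPM in Tr-BrM control libraries and 5.74, 8.23 and 5.97 CPM in BrM control libraries, with a log2 fold change of -1.14 (SE 0.15, adjusted p = 1.73e-07). PCDHGC4 did not pass the filter on low counts, with 19, 15 and 11 counts in all in the S100A9-inh, Tr-BrM control and BrM control groups.

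**Figure D2:**
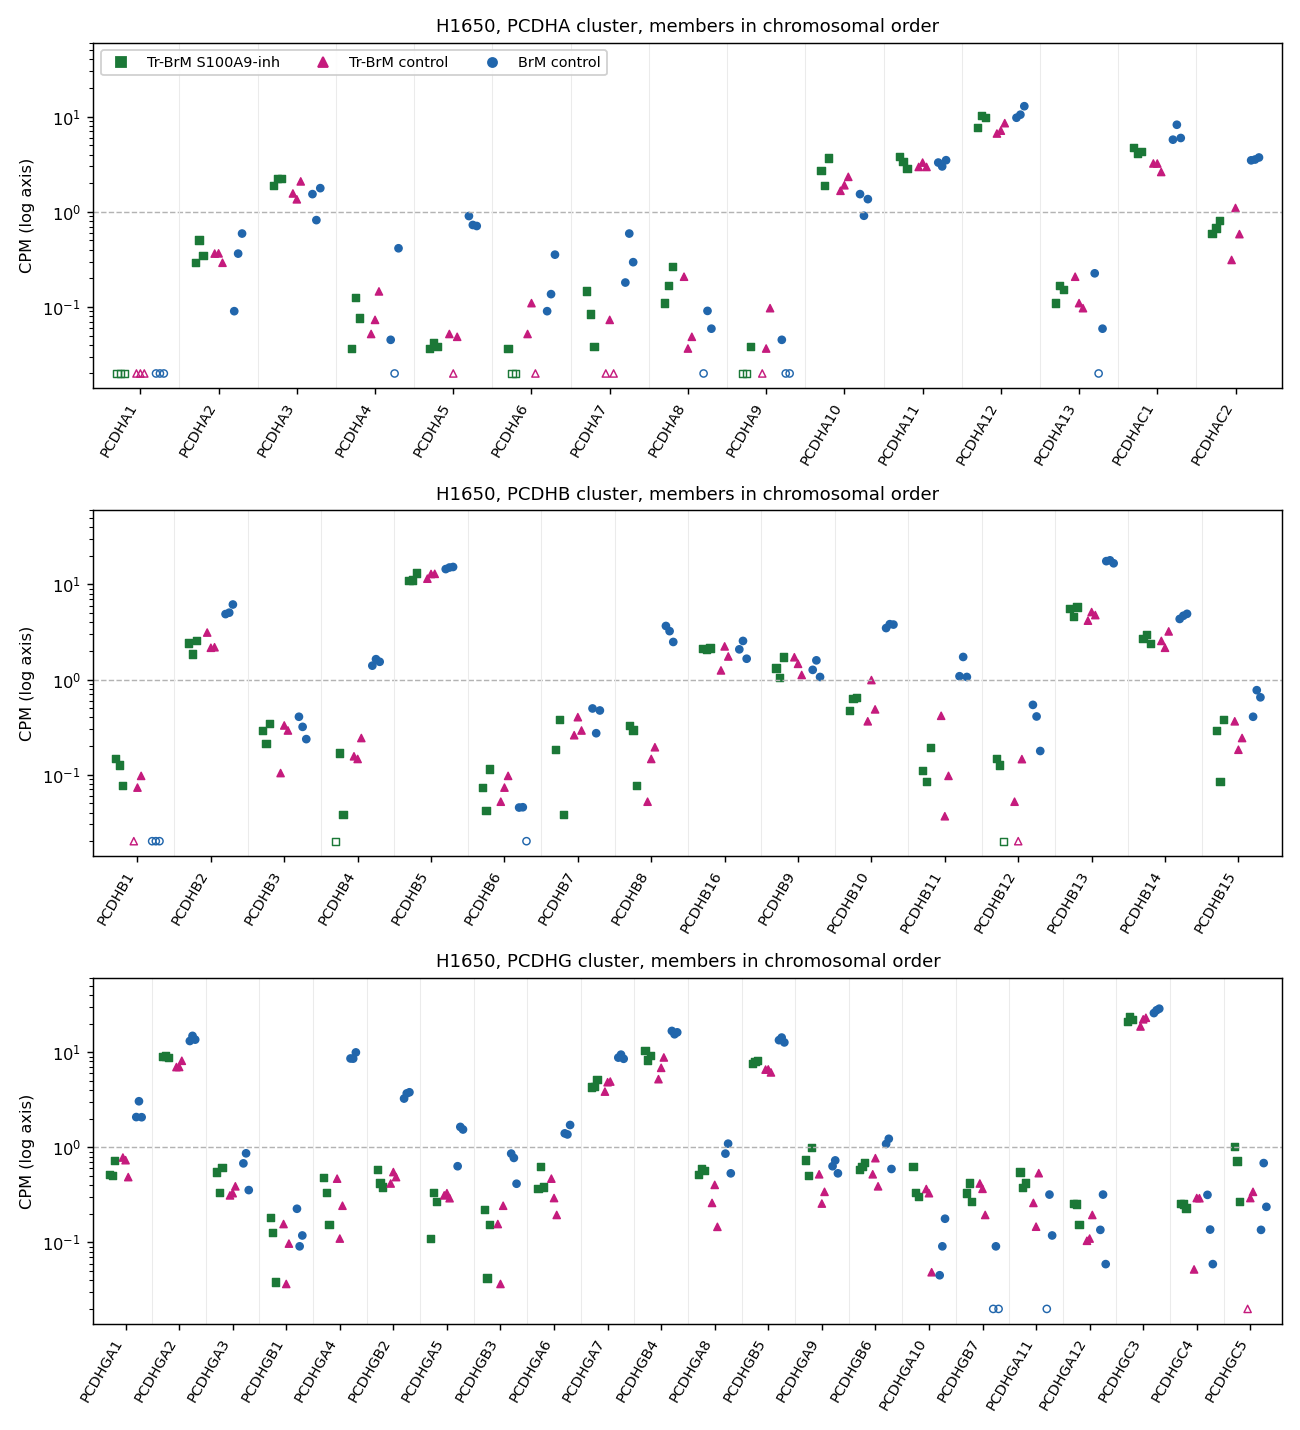
CPM of all 53 members in the 9 H1650 libraries on a log axis, in chromosomal order within each cluster and coloured by group, with open symbols at the bottom for libraries with 0 counts and a dashed line at 1 CPM. PCDHGA4 and PCDHB8 show wide gaps between the Tr-BrM control libraries (0.110 to 0.468 and 0.0520 to 0.194 CPM) and the BrM control libraries (8.55 to 9.94 and 2.48 to 3.66 CPM), while PCDHGC3 is at 18.6 CPM or higher in every library.

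In PCDHB, whose genes share few annotated exon bases, PCDHB8 and PCDHB13, which resemble each other in sequence, both fell. PCDHB8 (chr5:141177790-141180529) was at 0.330, 0.295 and 0.0767 CPM in S100A9-inh libraries, 0.0520, 0.146 and 0.194 CPM in Tr-BrM control libraries and 3.66, 3.23 and 2.48 CPM in BrM control libraries. PCDHB13 (chr5:141213919-141218979) was at 5.54, 4.60 and 5.79 CPM in S100A9-inh libraries, 4.16, 5.12 and 4.76 CPM in Tr-BrM control libraries and 17.6, 17.9 and 16.7 CPM in BrM control libraries. Both were separated from the BrM control libraries in all 6 Tr-BrM libraries. The log2 fold changes between the control groups were -4.50 (SE 0.39, adjusted p = 2.99e-11) for PCDHB8 and -1.88 (SE 0.10, adjusted p = 1.85e-15) for PCDHB13, and because the genes share sequence, how their reads were divided is uncertain.

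Other PCDHB genes fell by various amounts. PCDHB10 was at 0.364, 0.988 and 0.486 CPM in Tr-BrM control libraries and 3.48, 3.82 and 3.79 CPM in BrM control libraries, a log2 fold change of -2.50 (SE 0.26, adjusted p = 1.35e-09). PCDHB4 (-3.05), PCDHB11 (-2.93), PCDHB2 (-1.11) and PCDHB14 (-0.83) also fell. PCDHB5, with the highest level per unique kilobase of the cluster, changed least among them. It was at 11.01, 11.1 and 13.2 CPM in S100A9-inh libraries, 11.5, 12.9 and 12.9 CPM in Tr-BrM control libraries and 14.5, 15.1 and 15.3 CPM in BrM control libraries, with a log2 fold change of -0.26 (SE 0.09, adjusted p = 0.0109). That call was lost without Tr-BrM control replicate 1 (adjusted p = 0.0595), with scaling by library size alone (0.0820) and with DESeq2 (0.0531). PCDHB9 and PCDHB16 did not pass, with log2 fold changes of 0.11 and -0.25.

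In PCDHA, PCDHA12 (chr5:140875302-141012344) had the highest level per unique kilobase. PCDHA12 was at 7.64, 10.2 and 9.85 CPM in S100A9-inh libraries, 6.66, 7.13 and 8.55 CPM in Tr-BrM control libraries and 9.76, 10.5 and 12.9 CPM in BrM control libraries. Its Tr-BrM control libraries all lay below its BrM control libraries, with a log2 fold change of -0.56 (SE 0.12, adjusted p = 2.42e-04). PCDHA5 (chr5:140821604-141012344) was called lower on few counts, 2 in the Tr-BrM control group and 48 in the BrM control group, a level in BrM control cells 26.4 times that in Tr-BrM control cells with a 95% counting interval of 6.92 to 224. PCDHA10 was the member that rose. It was at 2.72, 1.90 and 3.68 CPM in S100A9-inh libraries, 1.66, 1.90 and 2.33 CPM in Tr-BrM control libraries and 1.54, 0.910 and 1.36 CPM in BrM control libraries, with a log2 fold change between the control groups of 0.64 (SE 0.26, adjusted p = 0.0363). Its call was lost with DESeq2 (adjusted p = 0.102), and without Tr-BrM control replicate 2 (0.0591), Tr-BrM control replicate 3 (0.135), BrM control replicate 2 (0.200) or BrM control replicate 3 (0.0528). PCDHA3 and PCDHA11 did not pass, with log2 fold changes of 0.29 and -0.07.

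The remaining 21 members did not pass the filter in H1650: PCDHA1, PCDHA2, PCDHA4, PCDHA6, PCDHA7, PCDHA8, PCDHA9, PCDHA13, PCDHB1, PCDHB3, PCDHB6, PCDHB7, PCDHB12, PCDHB15, PCDHGB1, PCDHGB3, PCDHGB7, PCDHGA10, PCDHGA11, PCDHGA12 and PCDHGC4. None of these had more than 19 counts or 0.858 CPM in any library, both reached by PCDHGB3. Counting members with a mean of 1 CPM or more, 16 were expressed in S100A9-inh cells, 16 in Tr-BrM control cells and 26 in BrM control cells, and 16 were expressed in all 3 groups. The 10 that reached 1 CPM in BrM control cells but in neither Tr-BrM group were PCDHAC2, PCDHB4, PCDHB8, PCDHB10, PCDHB11, PCDHGA1, PCDHGA4, PCDHGB2, PCDHGA5 and PCDHGA6. Some lay near the cut in BrM control libraries, as PCDHB11 at 1.08, 1.73 and 1.06 CPM and PCDHGA5 at 0.632, 1.64 and 1.54 CPM. PCDHGA4 was at 8.55 CPM or higher there. The same count was not made over all genes. In bulk RNA, fewer cells expressing a member and less RNA per cell cannot be told apart.

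Genes that flank the clusters were also lower in H1650 Tr-BrM control cells. Of 18 tested flanking genes, 15 fell and 1 rose, where 31.7% of all genes were called lower and 32.2% higher. The flanking genes had a median log2 fold change of -0.44, and their summed level was 1178 to 1212 CPM in Tr-BrM control libraries and 1677 to 1692 CPM in BrM control libraries. PCDH1, a non-clustered protocadherin beside PCDHG, was at 124 ± 1.14 CPM in Tr-BrM control libraries and 205 ± 2.90 CPM in BrM control libraries (log2 fold change -0.73, SE 0.03, adjusted p = 2.20e-17). ZMAT2 (-0.68), DIAPH1 (-0.53) and SLC35A4 (-0.52) fell by similar amounts. Of the 32 tested members, 13 lay below the lowest flanking gene, RELL2, at -1.23, and none lay above the highest, ARAP3, at 1.49. The 13 include members with few counts that passed the filter only through their BrM control libraries, such as PCDHA5 and PCDHB4. The difference between members and flanking genes was not tested.

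The shift reached beyond the flanks. With the boundary at 90 Mb chosen after the values were seen, 258 of 479 tested chromosome 5 genes beyond it that are not members were lower (53.9%), with a median log2 fold change of -0.32, against 98 of 349 before it (28.1%), with a median of 0.01. In the 10 Mb that hold the clusters, 43 of 71 such genes were lower, with a median of -0.37. Copy number was not measured. The part that this regional difference plays in the members' fall was not tested. Shifts were not limited to chromosome 5, whose genes other than the members had a median of -0.16 in this comparison. Among the other chromosomes the median was lowest on chromosome 16, at -0.60, and highest on chromosome 13, at 0.28.

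**Figure D3:**
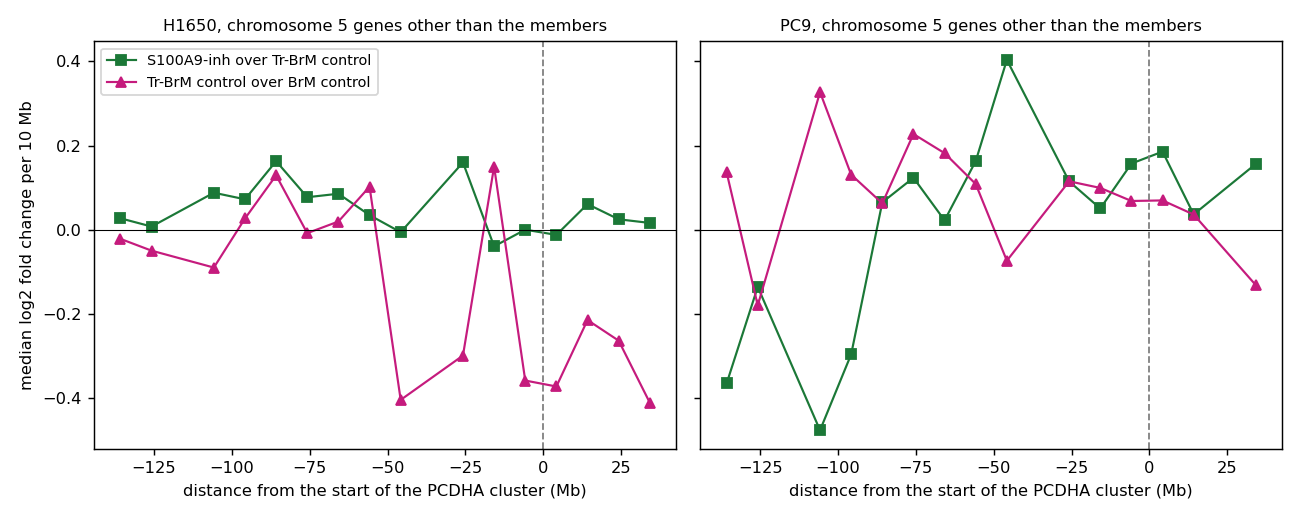
Median log2 fold change of chromosome 5 genes other than the members, per 10 Mb, against distance from the start of PCDHA, for S100A9-inh over Tr-BrM control and Tr-BrM control over BrM control in each line, leaving out bins with fewer than 20 tested genes. In H1650, 7 of the 8 rightmost bins, those beyond 90 Mb, have a median below 0 for Tr-BrM control against BrM control, the lowest at -0.41, while the bins before it range between -0.09 and 0.13.

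S100A9 inhibition was set against Tr-BrM control cells to ask how the members respond to it. In H1650 the PCDHB sum was 27.6 ± 1.996 CPM in S100A9-inh libraries and 27.5 ± 1.25 CPM in Tr-BrM control libraries. The PCDHG sum was 60.2 ± 0.205 CPM in S100A9-inh libraries and 51.8 ± 4.61 CPM in Tr-BrM control libraries, and the PCDHA sum was 23.5 ± 1.25 CPM in S100A9-inh libraries and 18.7 ± 1.282 CPM in Tr-BrM control libraries. For PCDHG and PCDHA the sums did not overlap between these groups. Of the 32 tested members, 6 rose, 0 fell and 26 did not pass, against 15.4% of all genes called higher and 13.8% called lower. No member was lower at an unadjusted p below 0.05 either, by edgeR or by DESeq2, and 9 were higher at that p by edgeR. The median log2 fold change of the tested members was 0.33 in PCDHA, -0.07 in PCDHB and 0.30 in PCDHG.

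The members that rose were the C-type genes PCDHAC1 and PCDHGC5 and the PCDHG genes PCDHGA2, PCDHGB4, PCDHGB5 and PCDHGA9. PCDHAC1 was at 4.77, 4.13 and 4.29 CPM in S100A9-inh libraries and 3.22, 3.22 and 2.62 CPM in Tr-BrM control libraries, without overlap, and its log2 fold change was 0.54 (SE 0.16, adjusted p = 0.00924). PCDHGB4 was at 10.4, 8.27 and 9.24 CPM in S100A9-inh libraries and 5.20, 6.84 and 8.79 CPM in Tr-BrM control libraries. Here the groups overlapped, and the log2 fold change was 0.42 (SE 0.12, adjusted p = 0.0101). PCDHGB5 was at 7.60, 8.02 and 8.17 CPM in S100A9-inh libraries and 6.55, 6.58 and 6.12 CPM in Tr-BrM control libraries (log2 fold change 0.30, SE 0.10, adjusted p = 0.0221), and PCDHGA2 was at 8.99, 9.11 and 8.78 CPM in S100A9-inh libraries and 6.97, 6.99 and 8.11 CPM in Tr-BrM control libraries (0.29, SE 0.10, adjusted p = 0.0258). In both, the lowest S100A9-inh library was above the highest Tr-BrM control library. PCDHGA9 and PCDHGC5 rest on few counts and their groups overlapped: PCDHGA9 had 58 counts in the S100A9-inh group and 24 in the Tr-BrM control group (log2 fold change 1.05, SE 0.39, adjusted p = 0.0430), and PCDHGC5 had 52 counts in the S100A9-inh group and 15 in the Tr-BrM control group (1.58, SE 0.59, adjusted p = 0.0450).

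Every one of these 6 calls depended on single libraries. The PCDHAC1 call was lost without Tr-BrM control replicate 3 (log2 fold change 0.45, adjusted p = 0.0559). The PCDHGB4 call was lost without S100A9-inh replicate 1 (0.33, adjusted p = 0.0772) or Tr-BrM control replicate 1 (0.27, adjusted p = 0.101), and the PCDHGB5 call without S100A9-inh replicate 3 (adjusted p = 0.0766) or Tr-BrM control replicate 3 (0.0815). The PCDHGA2 call was lost without S100A9-inh replicate 1 or 2 (adjusted p = 0.0625 and 0.0559) or Tr-BrM control replicate 1 or 2 (0.0915 and 0.124). The PCDHGA9 call was lost without S100A9-inh replicate 1 or 3 (0.0842 and 0.222) or Tr-BrM control replicate 2 or 3 (0.212 and 0.107), and the PCDHGC5 call without S100A9-inh replicate 1 or 2 (0.267 and 0.0762) or Tr-BrM control replicate 1 or 2 (0.182 and 0.0718). With DESeq2, 2 members were called higher instead of 6. The genes with the deepest fall in Tr-BrM control cells gave no call: PCDHGA4 had a log2 fold change of 0.35 (adjusted p = 0.650), PCDHB8 of 0.78 (0.372), PCDHGB2 of -0.07 (0.910), PCDHB13 of 0.17 (0.305) and PCDHAC2 of -0.03 (0.956).

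Against BrM control cells, H1650 S100A9-inh cells had 21 of 32 tested members lower, 2 higher and 9 that did not pass, where 31.2% of all genes were called lower and 32.5% higher. This comparison shares the BrM control libraries with the one above and the S100A9-inh libraries with the other. The members that passed the filter only through their BrM control libraries count here too. PCDHGA4 had a log2 fold change of -4.77 (SE 0.24, adjusted p = 1.86e-16), PCDHB8 of -3.72 (SE 0.34, adjusted p = 9.11e-11) and PCDHB13 of -1.71 (SE 0.10, adjusted p = 6.40e-15). PCDHA5 had 3 counts in the S100A9-inh group against 48 in the BrM control group, a level in BrM control cells 20.2 times as high with a counting interval of 6.51 to 101. The members that rose were PCDHA10, at 1.13 (SE 0.24, adjusted p = 2.02e-04), and PCDHA3, at 0.66 (SE 0.24, adjusted p = 0.0211). PCDHA3 was at 1.91, 2.24 and 2.26 CPM in S100A9-inh libraries and 1.54, 0.819 and 1.77 CPM in BrM control libraries, and its call was lost with DESeq2 (adjusted p = 0.0903), without S100A9-inh replicate 3 (0.0560) or without BrM control replicate 2, where the log2 fold change was 0.37 (0.200). Of the flanking genes, 17 of 18 were lower and 1 was higher in this comparison, with a median of -0.46, and 12 members lay below the lowest of them. Those 12 again include members that passed the filter only through their BrM control libraries. Against Tr-BrM control cells the flanking genes of S100A9-inh cells had a median of -0.08, with 6 lower and 1 higher, where 13.8% of all genes were called lower and 15.4% higher. They summed to 1141 to 1173 CPM in S100A9-inh libraries and 1178 to 1212 CPM in Tr-BrM control libraries.

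**Figure D4:**
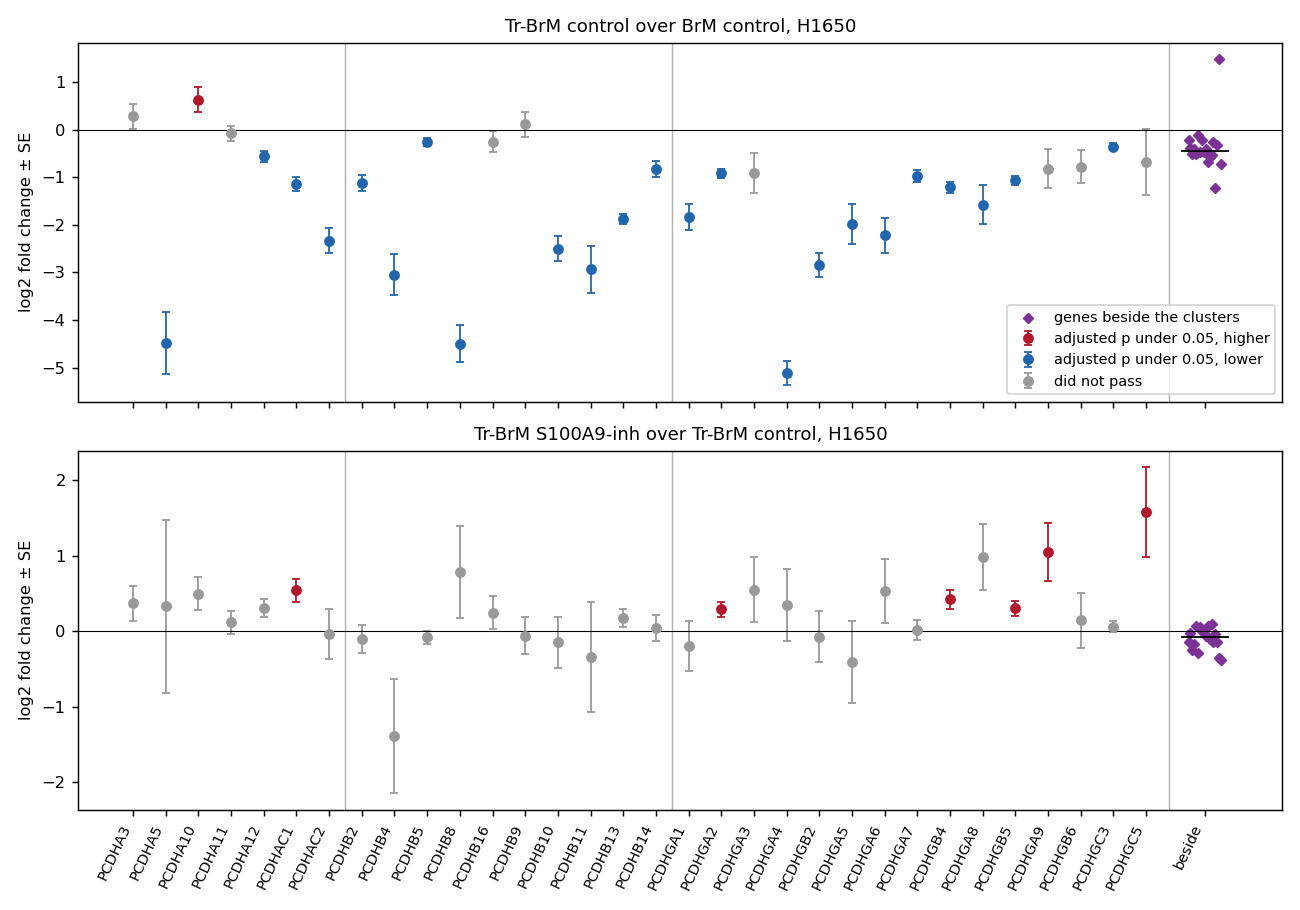
Log2 fold change with its SE for the 32 tested H1650 members in chromosomal order, for Tr-BrM control against BrM control (top) and S100A9-inh against Tr-BrM control (bottom), with the 18 tested flanking genes as diamonds and a line at their median. In the top panel PCDHGA4 lies at -5.11 against a flanking median of -0.44, and in the bottom panel the member median is 0.21 against a flanking median of -0.08.

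PC9 cells expressed few members. In this line 8 members passed the filter (4 in PCDHA, 1 in PCDHB and 3 in PCDHG), and none of the other 45 had more than 10 counts or 0.484 CPM in any library. PCDHA1, PCDHA2, PCDHA4, PCDHA5, PCDHA9, PCDHB1, PCDHB10, PCDHGA8 and PCDHGB5 had 0 counts in all 9 PC9 libraries, which allows a level of up to 0.0164 CPM from counting error alone. PCDHGC3 again had the highest level per unique kilobase, at 5.11 CPM averaged over the 9 libraries, followed by PCDHGA10 (0.844) and PCDHAC2 (0.793), while H1650 had 7.26 for PCDHGC3, 4.60 for PCDHA12 and 4.49 for PCDHB5. Divided by all exon bases instead, the H1650 levels per kilobase were 4.34 for PCDHGC3, 3.83 for PCDHB5, 1.91 for PCDHGB5, 1.80 for PCDHB13 and 1.69 for PCDHA12, so the place of PCDHA12 depends on the length used. PCDHA12 and PCDHB5 had 17 and 3 counts in all in the 9 PC9 libraries. Levels were scaled within each line, so those of different lines were not compared by a test.

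In PC9 Tr-BrM control cells, 4 of the 8 tested members rose against BrM control cells, 1 fell and 3 did not pass, where 29.6% of all genes were called higher and 30.3% lower. PCDHGC3 fell: it was at 15.1, 15.2 and 13.3 CPM in S100A9-inh libraries, 13.0, 13.4 and 16.6 CPM in Tr-BrM control libraries and 21.7, 19.97 and 21.3 CPM in BrM control libraries, with a log2 fold change of -0.55 (SE 0.09, adjusted p = 5.89e-06) between the control groups. All 6 Tr-BrM libraries lay below the BrM control libraries. PCDHGA10 (chr5:141412987-141512979), whose promoter with a single CGCT is shown above, rose. It was at 3.63, 3.92 and 3.22 CPM in S100A9-inh libraries, 5.88, 5.45 and 4.81 CPM in Tr-BrM control libraries and 2.30, 2.62 and 2.04 CPM in BrM control libraries, with a log2 fold change of 1.21 (SE 0.17, adjusted p = 3.19e-07). The 3 groups did not overlap. PCDHGA11 was at 1.60, 1.24 and 1.34 CPM in S100A9-inh libraries, 2.50, 2.77 and 2.81 CPM in Tr-BrM control libraries and 1.23, 1.51 and 1.39 CPM in BrM control libraries, with a log2 fold change of 0.97 (SE 0.23, adjusted p = 5.01e-04).

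PCDHA7 and PCDHB2 rose in PC9 at low levels. PCDHA7 was at 1.11, 1.38 and 1.40 CPM in S100A9-inh libraries, 1.87, 1.02 and 1.64 CPM in Tr-BrM control libraries and 0.245, 0.583 and 0.604 CPM in BrM control libraries (Tr-BrM control against BrM control 1.64, SE 0.36, adjusted p = 2.76e-04). PCDHB2 was at 0.823, 1.06 and 0.859 CPM in S100A9-inh libraries, 1.61, 1.31 and 1.43 CPM in Tr-BrM control libraries and 0.490, 0.535 and 0.650 CPM in BrM control libraries (1.37, SE 0.33, adjusted p = 6.58e-04). In both genes every Tr-BrM control library was above every BrM control library. PCDHA11, PCDHAC1 and PCDHAC2 did not pass, with log2 fold changes of 0.61, -0.71 (adjusted p = 0.0542) and -0.15. The opposite changes of PCDHGC3 and of the other PCDHG genes left the PCDHG sum at 23.9 ± 1.46 CPM in Tr-BrM control libraries and 25.6 ± 0.459 CPM in BrM control libraries. Without PCDHGC3 it was 9.58 ± 0.611 CPM in Tr-BrM control libraries and 4.63 ± 0.454 CPM in BrM control libraries, and the share of PCDHGC3 was 59.9% in Tr-BrM control cells against 81.9% in BrM control cells.

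Under S100A9 inhibition, PC9 cells showed 1 member higher, 2 lower and 5 that did not pass, where 26.3% of all genes were called higher and 26.1% lower. PCDHAC2 rose: it was at 4.45, 3.60 and 3.33 CPM in S100A9-inh libraries, 1.93, 1.61 and 1.89 CPM in Tr-BrM control libraries and 1.96, 2.04 and 1.997 CPM in BrM control libraries. The S100A9-inh libraries stood above all others, and the log2 fold change was 1.07 (SE 0.20, adjusted p = 3.95e-05). PCDHGA10 fell by 0.58 (SE 0.16, adjusted p = 0.00276) and PCDHGA11 fell by 0.95 (SE 0.23, adjusted p = 7.92e-04), both on the log2 scale and both without overlap. PCDHB2 did not pass, at -0.66 (adjusted p = 0.0697). PCDHGC3 was at 0.02 (adjusted p = 0.864). PC9 S100A9-inh replicate 1 differed more from the other libraries of its group than any other replicate pair did, with a chi-square per degree of freedom of 5.85 and 6.51 against 1.54 to 3.89. Without it the log2 fold changes were 0.94 for PCDHAC2 (adjusted p = 3.91e-04), -0.58 for PCDHGA10 (0.00541) and -1.06 for PCDHGA11 (9.00e-04), and the counts of 1 higher and 2 lower stayed.

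Against BrM control cells, PC9 S100A9-inh cells had 3 members higher, 1 lower and 4 that did not pass, where 22.7% of all genes were called higher and 23.6% lower. PCDHA7 (1.42, adjusted p = 0.00210), PCDHAC2 (0.92, adjusted p = 2.25e-04) and PCDHGA10 (0.63, adjusted p = 0.00424) rose, and PCDHGC3 fell (-0.53, adjusted p = 1.68e-05). PCDHGA11 was at 0.02 (adjusted p = 0.958). The flanking genes in PC9 had a median log2 fold change of -0.16 for Tr-BrM control against BrM control, with 5 higher and 8 lower of 18. Over all genes, 29.6% were called higher and 30.3% lower in that comparison. For S100A9-inh against Tr-BrM control the flanking median was 0.26, with 13 higher and 0 lower, where 26.3% of all genes were called higher and 26.1% lower. The flanking genes summed to 1675 to 1770 CPM in S100A9-inh libraries, 1408 to 1430 CPM in Tr-BrM control libraries and 1307 to 1322 CPM in BrM control libraries. Their part in the rise of PCDHAC2 was not tested.

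**Figure D5:**
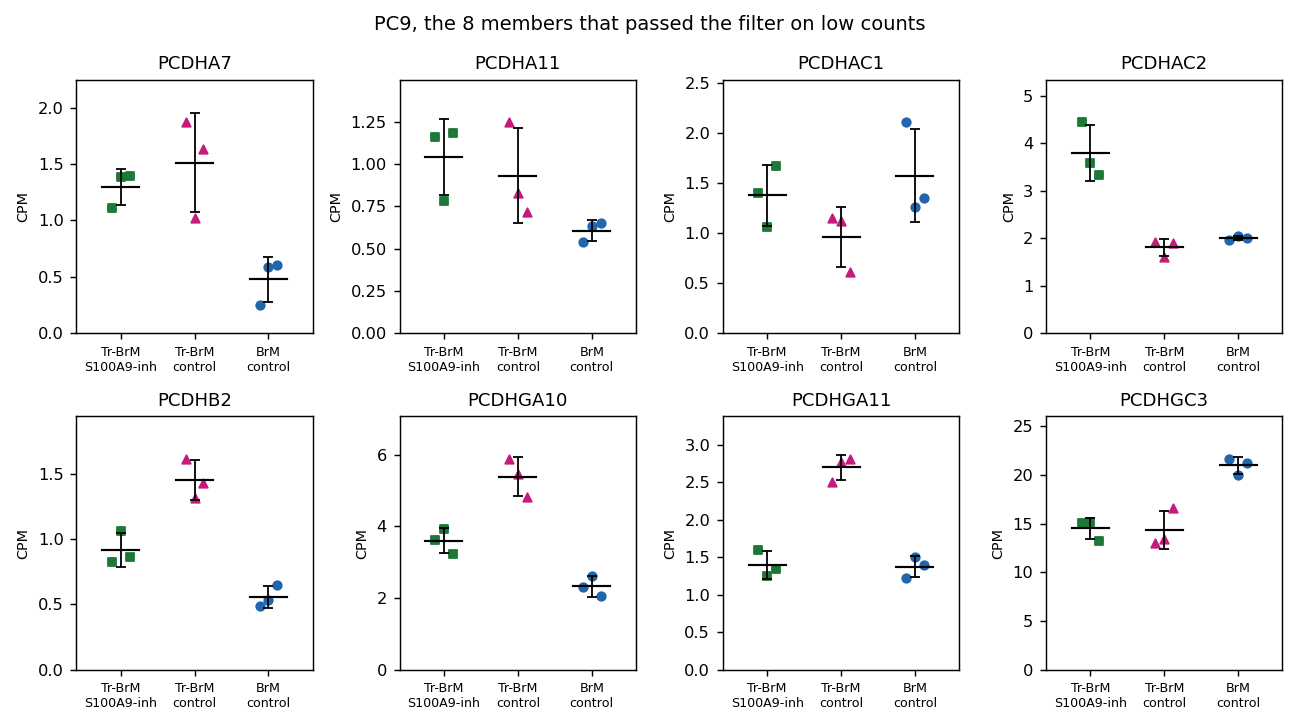
CPM of the 8 members tested in PC9 in each library by group, with a line at the mean and a bar for the SD (n = 3). PCDHGA10 and PCDHGA11 peak in the Tr-BrM control libraries, PCDHAC2 in the S100A9-inh libraries (3.33 to 4.45 CPM), and PCDHGC3 in the BrM control libraries (19.97 to 21.7 CPM).

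The difference between the lines was tested directly, as PC9 minus H1650, in a fit of all 18 libraries over 19076 genes, 35 of them members. For Tr-BrM control against BrM control, 8 members differed, all with a higher fold change in PC9, where 54.6% of all genes differed. PCDHB2 rose in PC9 (1.37) and fell in H1650 (-1.11), a difference of 2.48 (SE 0.34, adjusted p = 4.37e-08). PCDHAC2 had -0.14 in PC9 and -2.32 in H1650, a difference of 2.18 (SE 0.35, adjusted p = 9.40e-07). For S100A9-inh against Tr-BrM control, 5 members differed, where 40.4% of all genes did, 3 with a higher and 2 with a lower fold change in PC9. For PCDHAC2 the fold changes were 1.07 in PC9 and -0.04 in H1650, a difference of 1.11 (SE 0.39, adjusted p = 0.0195). PCDHGC3 was not among the genes that differed in either comparison.

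The genes that regulate these clusters in other cells were listed as 24 genes for CTCF, cohesin, DNA methylation and silencing, all of them tested in both lines. In H1650 Tr-BrM control cells 10 rose, 5 fell and 9 did not pass. Over all genes, 32.2% were called higher and 31.7% lower. DNMT3B, the methyltransferase that in mouse methylates protocadherin promoters, was at 79.1 ± 2.14 CPM in S100A9-inh libraries, 113 ± 2.16 CPM in Tr-BrM control libraries and 24.98 ± 0.300 CPM in BrM control libraries. Its log2 fold change was 2.17 for Tr-BrM control against BrM control (SE 0.04, adjusted p = 1.13e-25) and -0.51 for S100A9-inh against Tr-BrM control (SE 0.04, adjusted p = 1.21e-11). TET3 (1.02) and TET2 (0.64), which oxidise methylated cytosine, and RAD21 (0.38), a cohesin subunit, also rose, and CTCF was at 0.10. With S100A9 inhibition in H1650, 3 of the 24 rose, 4 fell and 17 did not pass. Over all genes, 15.4% were called higher and 13.8% lower. RAD21 (-0.17) and CTCF (-0.16) were among the regulators that fell. In PC9 Tr-BrM control cells 13 rose, 7 fell and 4 did not pass, where 29.6% of all genes were called higher and 30.3% lower. DNMT3B was at 18.5 ± 1.06 CPM in PC9 Tr-BrM control libraries and 15.6 ± 0.503 CPM in PC9 BrM control libraries (0.24, adjusted p = 0.0129). With S100A9 inhibition in PC9, 5 of the 24 rose, 10 fell and 9 did not pass. Over all genes, 26.3% were called higher and 26.1% lower. Methylation was not measured, and no relation of the 24 genes to the members was tested.

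A list of 23 partners holds the proteins that protocadherins signal through or are cleaved by. In H1650 Tr-BrM control cells 6 rose, 10 fell and 7 did not pass. Over all genes, 32.2% were called higher and 31.7% lower. ABI1 (1.15) and CYFIP2 (2.65), subunits of the WAVE actin regulator, and PTK2B (0.97), a kinase that protocadherins inhibit in mouse neurons, rose, while AXIN1 was at 20.1 ± 1.40 CPM in Tr-BrM control libraries and 36.8 ± 0.185 CPM in BrM control libraries (-0.86, SE 0.07, adjusted p = 3.68e-12). With S100A9 inhibition 3 rose, 3 fell and 17 did not pass, where 15.4% of all genes were called higher and 13.8% lower. ABI1 (0.23) and NCKAP1 (0.24) were higher, and the gamma-secretase subunits NCSTN (-0.27) and APH1A (-0.14) were lower. In PC9 Tr-BrM control cells 6 rose and 12 fell, where 29.6% of all genes were called higher and 30.3% lower. CYFIP2 (2.03) and FYN (0.95) were higher and ABI1 (-0.97) was lower. With S100A9 inhibition in PC9, 9 rose and 4 fell, where 26.3% of all genes were called higher and 26.1% lower. ABI1 (0.75) and WASF1 (1.04) were then higher and the protease ADAM10 (-0.46) lower.

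Non-clustered protocadherins and related cadherins changed in both directions. Of 21 listed genes, 16 were tested in H1650, and in Tr-BrM control cells 8 rose, 6 fell and 2 did not pass. Over all genes, 32.2% were called higher and 31.7% lower in this comparison. FAT2 was at 172 ± 2.78 CPM in Tr-BrM control libraries and 1.09 ± 0.300 CPM in BrM control libraries (log2 fold change 7.31, SE 0.08, adjusted p = 6.70e-32), PCDH18 (4.09) and PCDH7 (2.29) rose, and CELSR1, a planar polarity cadherin, fell (-1.45). In PC9, 8 were tested, of which 4 rose and 2 fell in Tr-BrM control cells, with PCDH1 (0.79) and FAT1 (0.45) higher and CELSR1 (-0.87) lower. Of all PC9 genes, 29.6% were called higher and 30.3% lower. With S100A9 inhibition 3 rose and 3 fell in H1650, with FAT1 higher (0.29), where 15.4% of all genes were called higher and 13.8% lower. In PC9, 2 rose and 2 fell with inhibition, with FAT1 lower (-0.62), where 26.3% of all genes were called higher and 26.1% lower.

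Markers of other cell types moved between the same groups. In H1650 Tr-BrM control against BrM control, 8 of 9 astrocyte markers were higher and 1 lower, and their sums were 269 to 280 CPM in Tr-BrM control libraries and 35.5 to 43.7 CPM in BrM control libraries, with GFAP at 63.2 CPM in Tr-BrM control cells and 8.68 CPM in BrM control cells. Fibroblast markers were higher for 7 and lower for 1 of 9 (166 to 186 CPM in Tr-BrM control libraries against 30.9 to 32.8 CPM in BrM control libraries), and neuron markers were higher for 5 and lower for 2 of 11 tested (490 to 518 CPM in Tr-BrM control libraries against 241 to 249 CPM in BrM control libraries), with RBFOX3, which defines mature neurons, at 0.121 CPM in Tr-BrM control cells and 0.265 CPM in BrM control cells. Oligodendrocyte markers were higher for 5 of 7 tested (229 to 234 CPM in Tr-BrM control libraries against 212 to 218 CPM in BrM control libraries), with MOG at 0 in BrM control cells. Myeloid markers were higher for 4 and lower for 1 of 5 tested (92.1 to 98.6 CPM in Tr-BrM control libraries against 88.2 to 91.2 CPM in BrM control libraries), with P2RY12 at 0 in BrM control cells. Epithelial and lung markers were higher for 2 and lower for 5 of 8 tested (10010 to 10363 CPM in Tr-BrM control libraries against 11628 to 11685 CPM in BrM control libraries). Of all genes, 32.2% were called higher and 31.7% lower in H1650 Tr-BrM control against BrM control. In H1650 S100A9-inh libraries the sums were 587 to 612 CPM for neuron, 212 to 225 CPM for astrocyte and 188 to 197 CPM for fibroblast markers. In PC9 the astrocyte sum was 34.6 to 38.1 CPM in S100A9-inh libraries, 98.2 to 103 CPM in Tr-BrM control libraries and 15.6 to 16.7 CPM in BrM control libraries, most of it SLC1A3, at 97.6 CPM in Tr-BrM control cells and 15.1 CPM in BrM control cells. Fibroblast markers summed to 12.8 to 15.2 CPM in PC9 Tr-BrM control libraries and 26.7 to 27.2 CPM in PC9 BrM control libraries, and myeloid markers to 12.02 to 13.9 CPM in PC9 Tr-BrM control libraries and 31.0 to 31.7 CPM in PC9 BrM control libraries. These PC9 sums rest on few genes. Between the control groups, 3 of 9 astrocyte (2 higher, 0 lower), 2 of 9 fibroblast (0 higher, 2 lower) and 2 of 9 myeloid markers (1 higher, 1 lower) were tested. The PC9 oligodendrocyte sum was 151 to 162 CPM in Tr-BrM control libraries and 189 to 197 CPM in BrM control libraries, the neuron sum 113 to 116 CPM in Tr-BrM control libraries and 109 to 112 CPM in BrM control libraries, and the epithelial and lung sum 21829 to 22334 CPM in Tr-BrM control libraries and 27559 to 28014 CPM in BrM control libraries. Of the tested PC9 markers, 0 of 3 oligodendrocyte were higher and 2 lower, and 1 of 5 neuron was higher and 0 lower. Among 8 epithelial and lung markers 1 was higher and 6 lower, where 29.6% of all PC9 genes were called higher and 30.3% lower. The part of the markers in the members' changes was not tested.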

How the data were processed

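Poly-A selected RNA of 18 libraries, 3 in each of 3 groups in 2 lines, was sequenced. The values are the raw read counts per gene that the authors deposited, 1 table per line. Per the submitters' processing notes, STAR, R 4.0.1 and DESeq2 1.28.1 were used with GRCh38. No source used here gives the counting tool, the annotation release, strand handling or the treatment of reads that map to several genes. Versioned identifiers of 34 of the 53 members in the H1650 table and of 4 in the PC9 table are those of GENCODE 29, so the tables carry different annotation versions, and levels were compared within a table.

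Each line was fitted over its 9 libraries with edgeR 4.0.16 under R 4.3.3 (scaling by TMM, genes kept by filterByExpr with a minimum count of 10 and a total of 15, quasi-likelihood F-test, Benjamini-Hochberg adjustment over all genes tested, threshold 0.05). This left 17937 genes in H1650 and 16169 in PC9. CPM values are scaled by TMM. The difference between lines was fitted over the 60399 identifiers in both tables. Level per length is CPM per kilobase of exon bases held by no other chromosome 5 gene of GENCODE 29. Counting intervals are exact at 95% and cover counting error only, as does the floor of 3 counts over 9 libraries. The script was tested on simulated data. No replicate pair was identical. Alternatives were scaling by RLE, by upper quartile or by library size alone, DESeq2 1.42.0, no filter, a filter at 1 CPM, a fit of the compared groups only and leaving out each library, with level per length over all exon bases as another. Genes were named by a rule: all members could be named, and from the other lists up to 4 called genes with the smallest p. The members and lists were chosen with earlier results of these data known.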

Additional observations from a re-analysis of the deposited data

Results flagged for a closer look

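In 13 calls over 12 members, PCDHAC2 in both comparisons, the fold change differed between PC9 and H1650 by a test of the difference itself (edgeR quasi-likelihood test of PC9 minus H1650 in a joint fit). For Tr-BrM control against BrM control 8 of 35 tested members differed, where 54.6% of all genes did. For S100A9-inh against Tr-BrM control 5 of 35 differed, where 40.4% of all genes did. For Tr-BrM control against BrM control, PCDHB2 (difference 2.48) and PCDHAC2 (2.18) rest on counts in both lines. In PCDHA7 the difference of 4.99 (SE 0.91) set a PC9 fold change of 1.64 against 2 counts in H1650 Tr-BrM control cells and 22 in H1650 BrM control cells. PCDHGB2 differed by 3.90 (SE 0.69), PCDHGA1 by 3.75 (SE 1.06), PCDHGA2 by 1.70 (SE 0.58), PCDHGA6 by 3.48 (SE 1.24) and PCDHGA5 by 3.25 (SE 1.38). All 5 of these fell in H1650, while in PC9 none passed the filter of the fit within that line, with 22 and 11 counts in PC9 Tr-BrM control and BrM control cells for PCDHGB2, 15 and 9 for PCDHGA2, 8 and 2 for PCDHGA1, and 5 and 2 for both PCDHGA6 and PCDHGA5.

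For S100A9-inh against Tr-BrM control, PCDHAC2 differed by 1.11 (SE 0.39), PCDHGA11 by -1.53 (SE 0.54) and PCDHGA10 by -1.32 (SE 0.49). PCDHGA10 and PCDHGA11 fell in PC9 and in H1650 had 33 and 35 counts in S100A9-inh cells and 17 and 20 counts in Tr-BrM control cells. PCDHB4 differed by 5.12 (SE 1.90) and PCDHGA7 by 4.27 (SE 1.71), with 4 and 6 counts in PC9 S100A9-inh cells and 0 counts of either in PC9 Tr-BrM control cells, so that the fitted size of these differences depends on the prior count.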

How the results depend on the processing

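The 65 called fold changes of members were recomputed in 836 pairs of a call and an alternative. Of these, 801 kept the direction and the call, 35 kept the direction and lost the call, and 0 changed direction. The calls lost in these pairs belong to 9 members, all in H1650, and no PC9 call was lost. Pairs in which the member received no adjusted p were left out. With the filter at 1 CPM, 21 of 24 H1650 calls remained for Tr-BrM control against BrM control. For S100A9-inh, 21 of 23 remained against BrM control and 4 of 6 against Tr-BrM control. With the compared groups alone, 4 of those 6 remained. The direction of every called member held under all 3 other scalings (RLE, upper quartile and library size alone). Without a filter on low counts, H1650 had 2 members higher in Tr-BrM control against BrM control instead of 1, and 6 higher in S100A9-inh against BrM control instead of 2. With DESeq2, H1650 had 2 members higher in S100A9-inh against Tr-BrM control instead of 6. In PC9, 2 members were lower in Tr-BrM control against BrM control instead of 1 with the stricter filter and with the compared groups alone. With a minimum of 2 CPM in place of 1 CPM, PC9 members counted as expressed numbered 3 instead of 7 in S100A9-inh cells, 3 instead of 6 in Tr-BrM control cells and 2 instead of 5 in BrM control cells.

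With each library left out in turn, H1650 members higher in Tr-BrM control against BrM control numbered 0 to 1 (0 without Tr-BrM control replicate 2 or 3 or BrM control replicate 3). In S100A9-inh against Tr-BrM control 3 to 5 were higher (3 without S100A9-inh replicate 1, Tr-BrM control replicate 1 or Tr-BrM control replicate 2) and 0 to 1 lower (1 without S100A9-inh replicate 2). In PC9, 1 to 2 were lower in Tr-BrM control against BrM control (2 without Tr-BrM control replicate 1 or BrM control replicate 2). The members lower in H1650 numbered 23 to 26 in Tr-BrM control and 21 to 24 in S100A9-inh against BrM control. The cause was not tested. Over all genes, scaling by library size alone called 2201 higher and 3193 lower in H1650 S100A9-inh against Tr-BrM control, against 2762 and 2468 with TMM, and moved no median by more than 0.0836. The 21 members in H1650 and 45 in PC9 that did not pass the filter have counts too low for a test at this depth.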
